A study of Homo sapiens with 12 samples.

Results

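The promoters of the genes that encode the proteins of the cytosolic ribosome were examined for H3K27ac, the acetylated form of lysine 27 on histone H3 that is found at promoters and enhancers in use. Members were the protein-coding genes of the GENCODE annotation (human build hg38) whose symbol is RPL or RPS followed by digits and an optional A or X, together with RPLP0, RPLP1, RPLP2 and RPSA. This gave 77 of 20046 protein-coding genes, of which 74 had a peak within 1 kb of a transcript start in every library, as did 10397 genes in all. By role they comprised large-subunit (RPL), small-subunit (RPS and RPSA) and P-stalk (RPLP) proteins, and their symbols alone decided membership. FAU, which encodes a ribosomal protein fused to a ubiquitin-like sequence, carries another symbol and was kept in a separate list.

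HCT116, an established human colorectal cancer cell line, was profiled by CUT&RUN, in which an antibody directs a nuclease to marked chromatin and the released fragments are sequenced. The 3 conditions were untreated cells, cells given 1 μM cobimetinib, an inhibitor of the kinase MEK1 in the MAPK pathway, for 24 hours, and cells given 100 ng/ml of the cytokine TNFα, which activates NF-κB and AP1, for 24 hours. Each condition had 2 libraries, numbered as replicates, and no other allele or agent was named in the labels. The 6 libraries made with nonspecific IgG were not analysed here, so no background measured in the same way stands beside these values. The study describes the libraries as made from treatment replicates of 1 cell line, so p-values measure the spread between these samples. Labels name the untreated cells as untreated and not as given a solvent.

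Ribosomal protein genes are among the most highly transcribed genes of growing cells, and their products are made in nearly equal numbers. Most of their transcripts start with a C followed by a run of pyrimidines, the 5′ terminal oligopyrimidine (TOP) tract, through which mTOR signaling controls their translation. Many also carry small nucleolar RNAs (snoRNAs), which guide the modification of ribosomal RNA, in their introns.

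The sequences around the start site show what these promoters have in common and where they differ. They hold the 100 bases before the start and the first 20 bases of the transcript, are written 5′ to 3′ on the strand of the gene, and come from RefSeq (build GRCh38.p14). RPL21 and RPL19 had the best mean ranks, RPS24 and RPL15 were among the worst 6, RPSA and RPL13A ranked better with TNFα than with cobimetinib, and RPL31 and RPL41 ranked worse. Capitals mark a TOP tract or a match to one of the motifs searched, and a match that runs past the end is marked only in part.
RPL21 (chr13:27251458-27251577, plus strand): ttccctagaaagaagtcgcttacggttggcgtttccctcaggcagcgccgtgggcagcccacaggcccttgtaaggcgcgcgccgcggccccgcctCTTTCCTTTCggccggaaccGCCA
RPL19 (chr17:39200183-39200302, plus strand): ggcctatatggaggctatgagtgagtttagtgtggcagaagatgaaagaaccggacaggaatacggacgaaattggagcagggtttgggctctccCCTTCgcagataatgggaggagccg
RPS24 (chr10:78033763-78033882, plus strand): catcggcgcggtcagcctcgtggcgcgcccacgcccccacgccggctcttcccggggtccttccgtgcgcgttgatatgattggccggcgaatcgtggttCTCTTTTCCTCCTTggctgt
RPL15 (chr3:23917032-23917151, plus strand): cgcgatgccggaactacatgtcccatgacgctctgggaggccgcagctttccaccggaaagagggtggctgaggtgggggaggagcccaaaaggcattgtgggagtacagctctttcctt
RPSA (chr3:39406620-39406739, plus strand): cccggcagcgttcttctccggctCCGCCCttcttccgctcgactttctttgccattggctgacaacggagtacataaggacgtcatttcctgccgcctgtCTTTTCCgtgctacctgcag
RPL13A (chr19:49487508-49487627, plus strand): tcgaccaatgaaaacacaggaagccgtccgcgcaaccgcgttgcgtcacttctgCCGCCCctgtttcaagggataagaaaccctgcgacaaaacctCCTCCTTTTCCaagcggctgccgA
RPL31 (chr2:101002189-101002308, plus strand): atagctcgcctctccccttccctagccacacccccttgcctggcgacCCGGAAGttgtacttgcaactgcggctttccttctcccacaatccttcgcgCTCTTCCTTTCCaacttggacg
RPL41 (chr12:56116533-56116652, plus strand): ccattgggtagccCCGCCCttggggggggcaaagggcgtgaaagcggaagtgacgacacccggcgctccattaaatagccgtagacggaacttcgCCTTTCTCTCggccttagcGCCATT

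In these letters the capital run near the start is the TOP tract in all but RPL15. The RPL15 window ends in a C followed by pyrimidines only. That run begins more than 5 bases from the start, which is past the limit of the search. Positions are counted from 1 at the first base of the transcript, and bases before it are negative. The capitals that begin at position -77 in RPSA, -46 in RPL13A and -87 in RPL41 are GC boxes on the opposite strand, and those at -53 in RPL31 are an ETS core. Near the end of RPL21, RPL13A and RPL41 the capitals open a YY1 match that begins at position 17, 20 and 15. RPL21, RPL19 and RPS24, at opposite ends of the order of ranks, all had a match to the TOP tract. That of RPL19 begins at position -5 and is 5 bases long, so it ends before the first base of the transcript. Within these 8 windows an ETS core was marked in RPL31 alone.

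A score rises with sequencing depth and with how the peaks were called, so each promoter was described by the rank of its best peak in the list of its own library. Rank 1 is the highest score, tied scores share their mean rank, and a better rank is a lower number. The lists held 69813 to 124771 peaks, the lowest score was 20 in each, and read depth is unknown from them. Untreated replicate 2 stood apart, with a median width of 380 bp for its 20000 best peaks against 922 to 1265.5 bp in the others, and every comparison with untreated cells rests in part on it. Epithelial identity was checked by 8 marker genes, of which 7, including EPCAM and KRT8, had a promoter peak in all 6 libraries and VIL1 had none in any. Their ranks varied widely, with KRT8 between 320 and 2276.5, CDH1 between 9959 and 117375 and KRT19 between 15620.5 and 91529, and the median of the list lay at the 52.5th percentile of promoters tested. None of 4 immune and none of 2 hepatocyte markers had a peak in all 6, and of 4 fibroblast and endothelial markers only COL1A1 did, with ranks from 2339.5 to 9958.5 and a geometric mean of 4783, ahead of the epithelial median of 10084.

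Ribosomal protein promoters ranked high in every library. Their median geometric mean rank over the 6 libraries was 4802 (n = 74), against 9542 for all 10397 promoters tested, a position at the 25.0th percentile of those. Of the 74, 56 (75.7%) were in the better 50% of promoters and 19 (25.7%) were in the best 10%. In single libraries the median rank of the members was 3914.5 and 5855.25 in untreated replicates 1 and 2, 4408 and 4201.25 with cobimetinib, and 5000.5 and 4972.75 with TNFα. The medians of all promoters in the same order were 8013, 11736, 8776, 8577, 9302 and 10126.5. The share of members among the 5000 best peaks ran from 47.3% in untreated replicate 2 to 60.8% in untreated replicate 1, and that of all promoters from 24.3% in TNFα replicate 2 to 32.6% in untreated replicate 1. All promoters here includes the members. The higher position of members was therefore seen in each of the 6 libraries, with medians of the conditions no further apart than those of the untreated replicates.

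**Figure D1:**
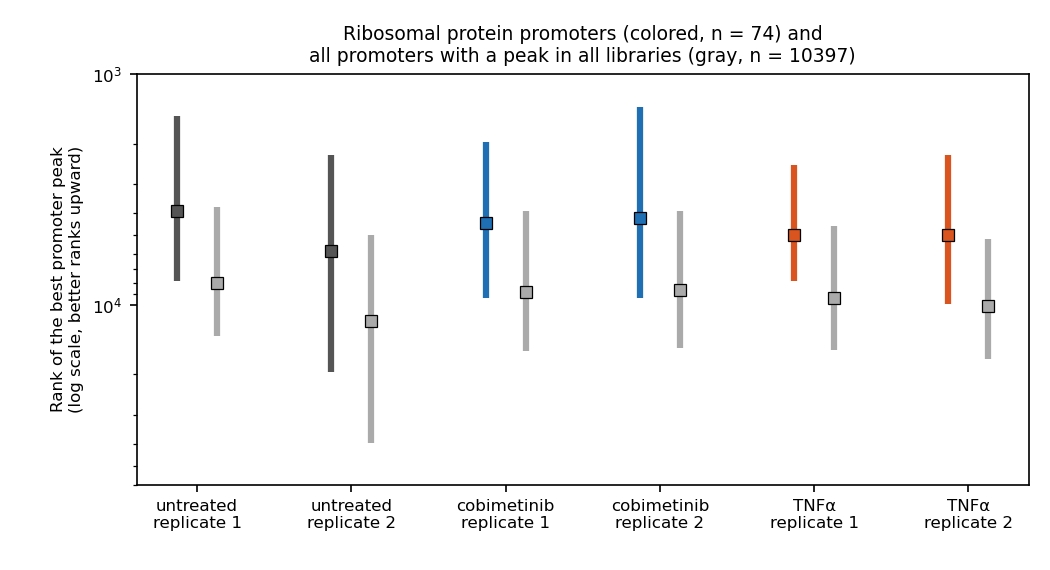
Rank of the best promoter peak (vertical axis, log scale, better ranks upward) in each of the 6 libraries. Squares are medians and bars run from the first to the third quartile, colored for the 74 ribosomal protein promoters and gray for all 10397 promoters. The colored median lies above the gray one in every library, at 3914.5 against 8013 in untreated replicate 1 for example.

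Large-subunit promoters held most of the top positions. Their median geometric mean rank was 2834 (n = 43), against 7193 for small-subunit promoters (n = 29), and 16 large-subunit but 3 small-subunit promoters were in the best 10% of all promoters. The order was the same in each library, from 2840 against 5337 in untreated replicate 1 to 4512 against 8745 in TNFα replicate 2. Genes are not replicates, so this difference between roles is a description without a test. Among the P-stalk proteins, which recruit translation factors to the ribosome, RPLP2 had a geometric mean rank of 3211 and RPLP1 one of 12852, and RPLP0 lacked a peak in untreated replicate 2.

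**Figure D2:**
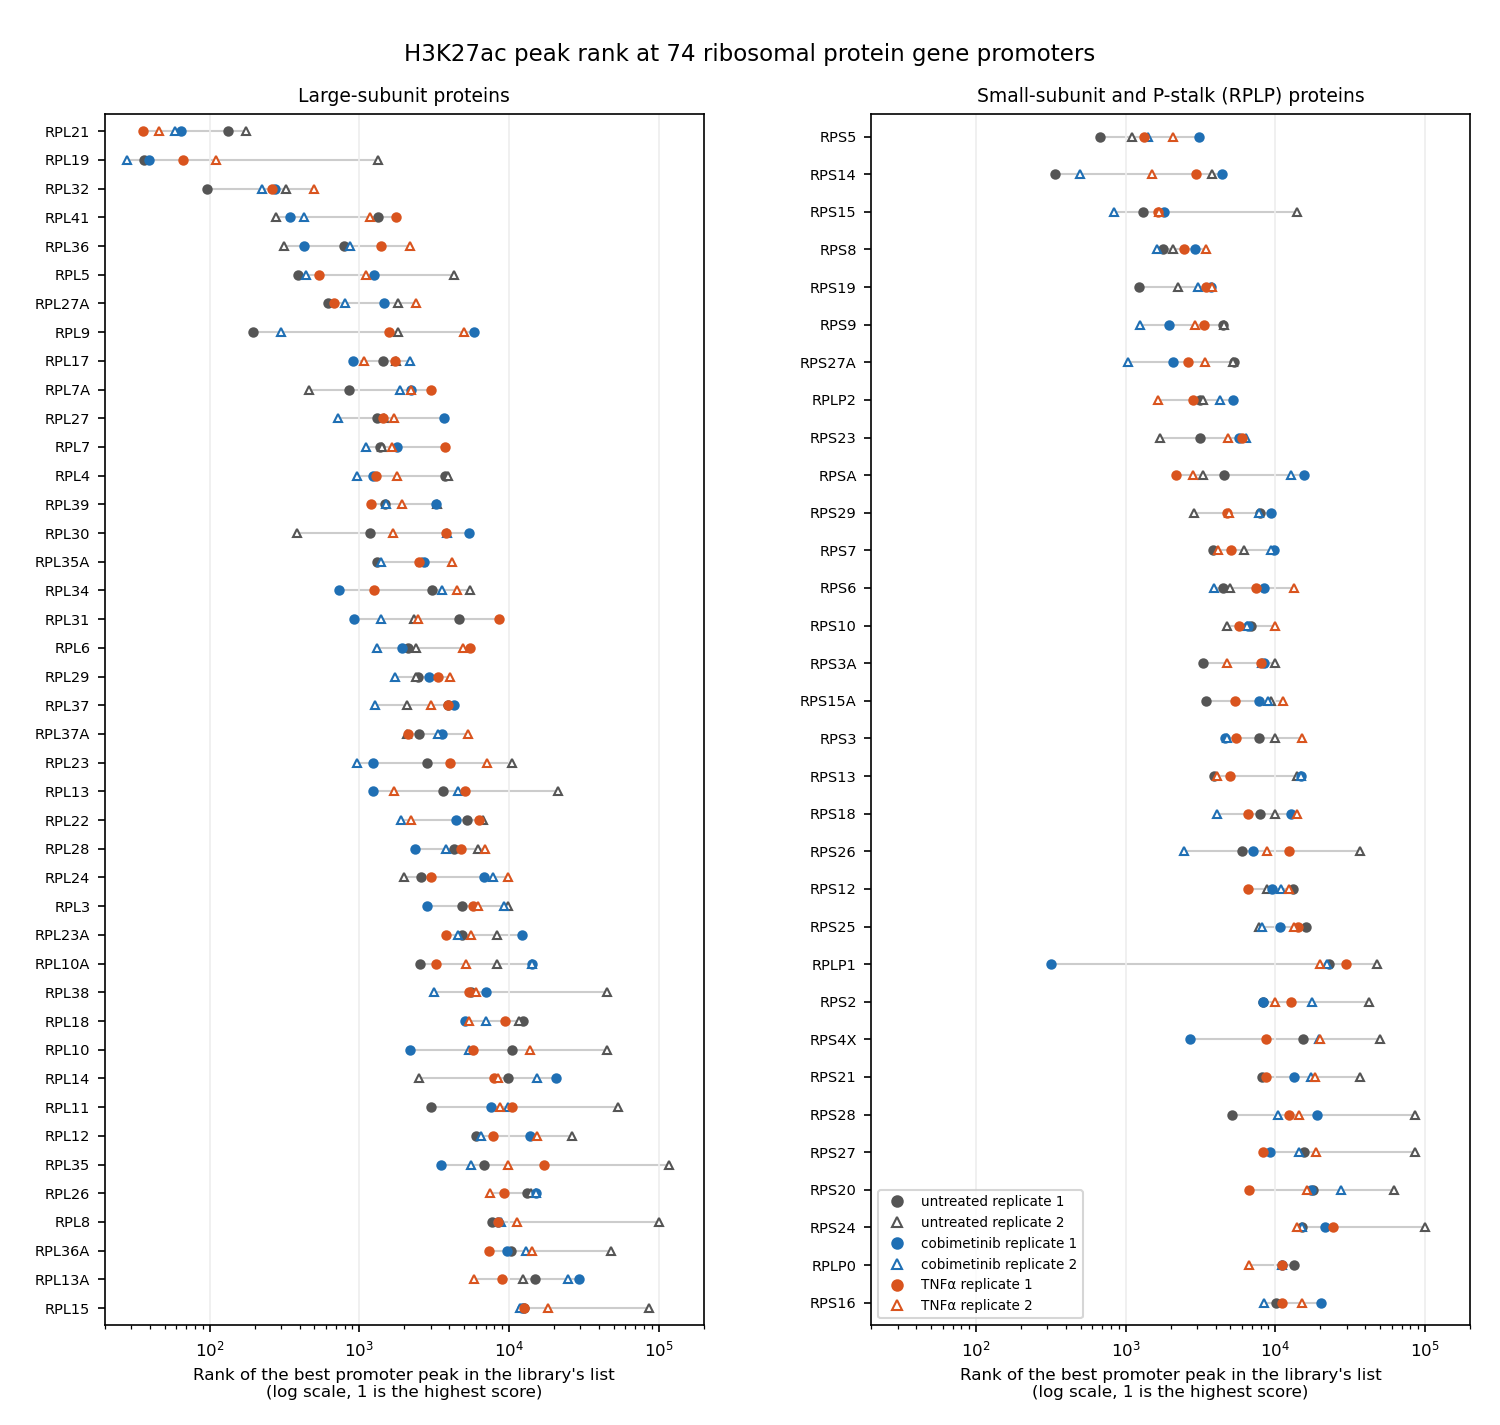
Rank of the best promoter peak (horizontal axis, log scale) of 74 of the 77 genes in each library, with circles for replicate 1, triangles for replicate 2 and a gray line from the best to the worst rank. Genes are ordered by geometric mean rank, with RPLP0 and RPS16, which lacked a peak in a library, last. RPL21 and RPL19 stand at the left, and the open gray triangles of untreated replicate 2 form most of the far right points.

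RPL21, a large-subunit protein gene on chromosome 13, had the best promoter of the group. Its ranks were 132.5 and 174.5 untreated, 64.5 and 59 with cobimetinib, and 36 and 46 with TNFα, with scores from 208 in untreated replicate 2 to 869 in TNFα replicate 1. Its worst rank, in untreated replicate 2, was still better than that of most members in any library. RPL19, a large-subunit protein gene on chromosome 17, ranked 36.5 and 1339.5 untreated, 39.5 and 28 with cobimetinib and 66 and 110 with TNFα. It ranked ahead of RPL21 in 3 libraries and was far behind it in untreated replicate 2.

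RPL32, which carries SNORA7A within its span, ranked 96.5 and 324.5 untreated, 271.5 and 224.5 with cobimetinib and 260 and 497 with TNFα. RPL41, which encodes the smallest protein of the large subunit, ranked 1325.5 and 278 untreated, 345.5 and 424 with cobimetinib and 1763.5 and 1180 with TNFα. RPL5, whose product binds 5S ribosomal RNA together with RPL11, ranked 388.5 and 4321.5 untreated, 1260 and 441 with cobimetinib and 542 and 1111 with TNFα. RPL5 in its worst library ranked behind RPL41 in any, so the order of these neighbors is not fixed by the replicates.

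RPL36 was also among the best 6, but mostly by a start other than that of its canonical transcript. Its ranks were 786.5 and 315 untreated, 426.5 and 862.5 with cobimetinib and 1398.5 and 2174 with TNFα, and in 5 libraries the peak lay 9258 to 9305 bp from the start of the canonical transcript, where HSD11B1L and MICOS13 also start within 1 kb of an annotated RPL36 start. With the canonical start alone the ranks were 17120.5 and 315, 5971.5 and 5611, and 15449.5 and 5183 in the same order. Only RPL6, RPS29, RPS18, RPL10 and RPS4X were otherwise placed by a peak over 1 kb from the canonical start, in 4 libraries for RPL6 and in 1 for the others.

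The worst 6 were RPS21, RPS28, RPS27, RPL15, RPS20 and RPS24, in order, and 5 of them encode small-subunit proteins. RPS24 ranked 15100 and 100417 untreated, 21462 and 15062.5 with cobimetinib and 24212.5 and 13924 with TNFα. RPL15 ranked 12666 and 86440.5 untreated, 12310 and 11910 with cobimetinib and 12675 and 18338.5 with TNFα. In both genes untreated replicate 2 was far behind and the other 5 libraries were close to each other. RPS21 ranked 8111.5 and 36797.5 untreated, 13344.5 and 17372 with cobimetinib and 8692 and 18338.5 with TNFα. RPS27 and RPS28 had the same rank of 86440.5 in that library, and stood between 8288 and 18781 and between 5131.5 and 19047 in the others.

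Peaks were lacking only in untreated replicate 2, at 3 genes, RPLP0 and RPS16 among them. RPLP0, the P-stalk protein that anchors RPLP1 and RPLP2, ranked 13279.5 in untreated replicate 1, 11141.5 and 11131.5 with cobimetinib and 11148 and 6684 with TNFα. RPS16 ranked 10082.5, 20221 and 8460, and 11020 and 15081 in the same order. These 3 genes entered no test, because the fit used genes with a peak in all 6 libraries. With a window of 2 kb, 75 members had a peak in all 6.

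Spread between libraries was wide for some members and narrow for others. The worst rank exceeded the best by a median of 4.97 times (n = 74), and by more than 10 times in 18 members. The widest was RPLP1 at 151 times, with a rank of 317 in cobimetinib replicate 1 and from 19779 to 47866 in the other 5 libraries. The narrowest, picked after their values were seen, were RPS12 (2.00 times, from 6550.5 to 13120) and RPL26 (2.04 times, from 7461 to 15235). The worst rank lay in untreated replicate 2 for 31 of 74 members (41.9%), against 47.4% of all promoters. Between libraries of the same condition the members' ranks differed by a median of 2.09 times (untreated), 1.56 times (cobimetinib) and 1.57 times (TNFα), and between libraries of different conditions by 1.48 to 2.57 times. The ranges of these values overlapped, and the closest pair of libraries was untreated replicate 1 with TNFα replicate 1, from different conditions.

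Peaks at these promoters covered the start site in most libraries. The best peak spanned the canonical start in 74 of 77 genes in untreated replicate 1 and in both TNFα libraries, in 66 and 68 with cobimetinib, and in 51 of the 74 genes with a peak in untreated replicate 2. Its median width was 1628 bp and 690.5 bp untreated, 1209 and 1202 bp with cobimetinib, and 1361 and 1135 bp with TNFα. Peaks covered a median of 72.7% of the 2001 bp around the canonical start in untreated replicate 1 and 38.3% in replicate 2, against 59.6% and 58.0% with cobimetinib and 67.4% and 57.5% with TNFα. The low value of untreated replicate 2 goes with the narrow peaks of that library as a whole, and its part in the ranks was not tested.

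Cobimetinib and untreated libraries were compared to ask whether ribosomal protein promoters respond when MAPK signaling is inhibited. The limma test on log2 ranks called 0 of 10397 promoters (0.0%) and 0 of 74 members at an adjusted p below 0.05 (Benjamini-Hochberg over all promoters). The smallest adjusted p of a member was 0.510, and with 2 libraries against 2 an exact permutation test of a single promoter cannot give a two-sided p below 0.333. At an unadjusted limma p below 0.05 there were 860 promoters (8.27%), among them 11 of the 74 members. A rank was called non-overlapping where both libraries of one condition ranked better than both of the other, and this held for 17 members (23.0%) that ranked better with cobimetinib and 15 (20.3%) that ranked worse. Over all promoters the counts were 2284 (22.0%) better and 1438 (13.8%) worse.

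Ranks among the promoters alone, which leave out all peaks away from start sites, gave 14 members better and 17 worse, against 2024 (19.5%) and 1921 (18.5%) of all promoters. On the rank in the whole list the median promoter differed by -0.31 (log2, cobimetinib minus untreated; negative is better), and on the rank among promoters by 0.03, so the whole list shifts with the scale. The median member differed by -0.27 and 0.08 on these scales, and by 0.04 relative to all promoters on the first. Its sign also turned without untreated replicate 2, where it was 0.14, and with the 20000 best peaks or quantile-normalized scores (0.07 and 0.03). A common shift of ribosomal protein promoters with cobimetinib was therefore not shown. By role, 11 large-subunit promoters were better and 8 worse of 43, and 5 small-subunit promoters were better and 6 worse of 29.

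Among members with non-overlapping ranks, RPLP1, RPL35, RPL10 and RPL23 had the largest differences toward a better rank. RPL23, a large-subunit protein gene on chromosome 17, ranked 2840 and 10539.5 untreated and 1241.5 and 962 with cobimetinib. Both cobimetinib libraries stood ahead by a geometric mean of 5.01 times (log2 difference -2.32, SE 0.85, limma adjusted p = 0.544). Where the peak had to cover a start the RPL23 difference was -0.37, and in cobimetinib replicate 1 the best peak lay 74 bp from the canonical start. RPL10, which completes the assembly of the large subunit, ranked 10537 and 45067.5 untreated and 2176.5 and 5405.5 with cobimetinib (-2.67, SE 0.92, limma adjusted p = 0.527). With the canonical start alone its rank in untreated replicate 2 was 86440.5 and the groups were again apart.

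RPL35, a protein near the exit of the peptide tunnel whose gene starts within 1 kb of ARPC5L, ranked 6857 and 117375 untreated and 3511 and 5545.5 with cobimetinib, with a log2 difference of -2.69 (SE 1.11, limma adjusted p = 0.583). Untreated replicate 1 lay close to the cobimetinib libraries and untreated replicate 2 far behind, and without untreated replicate 2 the RPL35 difference was -0.64. RPLP1 ranked 22702 and 47866 untreated and 317 and 22332 with cobimetinib, with a log2 difference of -3.63 (SE 1.43, limma adjusted p = 0.569). Cobimetinib replicate 2 and untreated replicate 1 lay close together, and without cobimetinib replicate 1 the RPLP1 difference was -0.56. On the rank among promoters the RPLP1 libraries overlapped.

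RPL30, RPSA, RPL14 and RPL7A led in the other direction. RPL30, a large-subunit protein gene on chromosome 8 that hosts SNORA72, ranked 1187.5 and 384 untreated and 5389 and 3832 with cobimetinib, a 6.73-fold difference in geometric mean rank (log2 2.75, SE 0.84, limma adjusted p = 0.510). RPL14, a large-subunit protein gene, ranked 9871 and 2503.5 untreated and 20630.5 and 15332 with cobimetinib. RPL7A, which hosts 4 snoRNAs and starts within 1 kb of MED22, ranked 856.5 and 459.5 untreated and 2202 and 1862.5 with cobimetinib. In all of these both cobimetinib libraries stood behind both untreated ones, on either scale of rank.

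**Figure D3:**
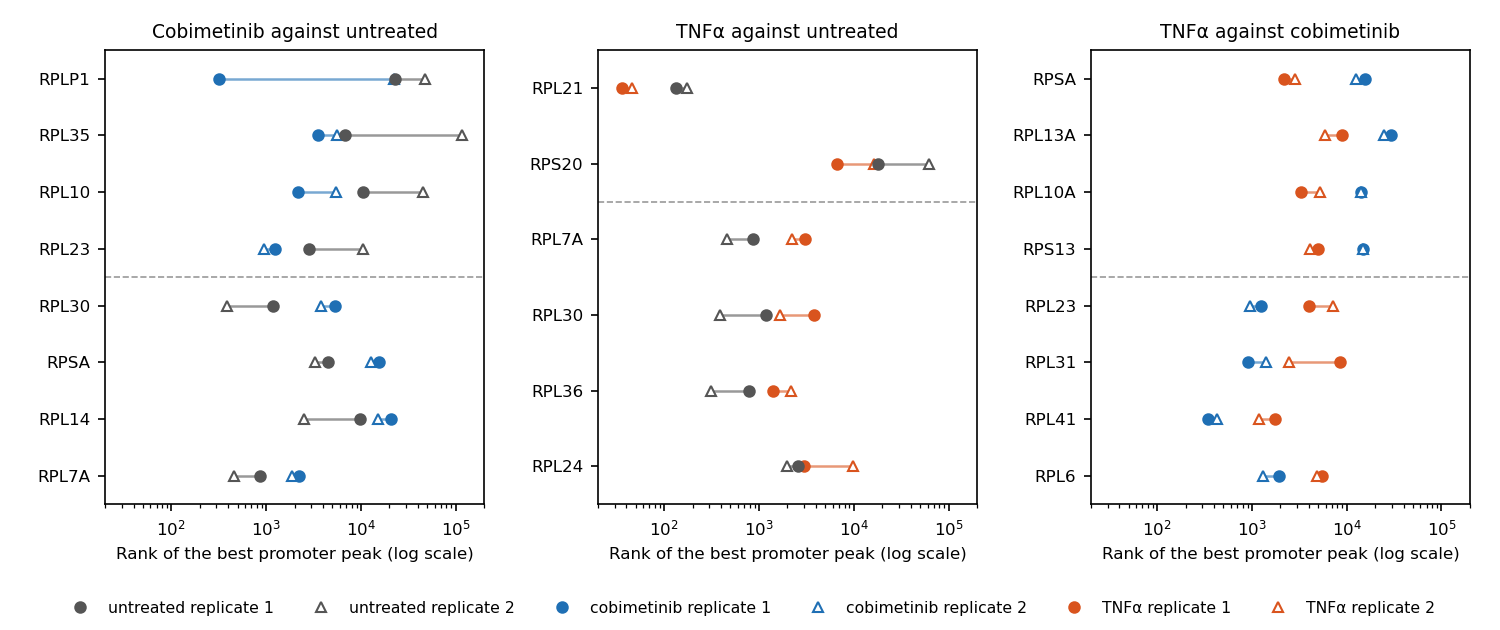
Rank of the best promoter peak (horizontal axis, log scale) in the 4 libraries of each comparison, for members with the largest non-overlapping differences toward a better rank (above the dashed line) and toward a worse one (below it). Circles are replicate 1, triangles replicate 2, and a line joins the replicates of a condition. None passed the limma test, and in several, such as RPLP1 and RPL35, 1 library lies far from its replicate.

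TNFα and untreated libraries were compared to ask the same of stimulation. The limma test called 0 of 10397 promoters (0.0%) and 0 of 74 members. An unadjusted p below 0.05 was reached by 348 promoters (3.35%), among them 4 of the 74 members. The smallest adjusted p of a member was 0.946. Non-overlapping ranks were better in 12 members (16.2%) and worse in 12 (16.2%), against 1338 (12.9%) and 1690 (16.3%) of all promoters. On the rank among promoters 16 members were better and 10 worse, against 1663 (16.0%) and 1711 (16.5%). The median member differed by -0.24 (log2, TNFα minus untreated), the median promoter by -0.11, and on the rank among promoters by -0.08 and 0.03. Without untreated replicate 2 the median member differed by 0.27, so its direction depended on that library. With the 20000 best peaks it was 0.12. By role, 6 large-subunit promoters were better and 7 worse of 43, and 5 small-subunit promoters were better and 5 worse of 29.

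RPL21, the best promoter of the group, led the members that ranked better with TNFα. Its 36 and 46 against 132.5 and 174.5 untreated amount to a 3.74-fold difference (log2 -1.90, SE 0.75, limma adjusted p = 0.946), and the libraries did not overlap. RPL21 also ranked ahead of untreated with cobimetinib, at 64.5 and 59 (log2 -1.30), though on the rank among promoters those libraries overlapped. The same untreated libraries served both comparisons. RPS20 ranked 17850.5 and 62095 untreated and 6702 and 16379 with TNFα, with 1 library of each condition close to the other condition.

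RPL7A, RPL30, RPL36 and RPL24 led in the other direction. RPL7A ranked 3037 and 2231.5 with TNFα, behind its 856.5 and 459.5 untreated (log2 difference 2.05, SE 0.77, limma adjusted p = 0.946). RPL30 ranked 3815.5 and 1670 with TNFα against 1187.5 and 384. On the rank among promoters RPL30 overlapped, as did RPL24, which ranked 2585.5 and 1993.5 untreated and 3012.5 and 9796 with TNFα. RPL36 was apart on both scales, but with the canonical start alone its libraries overlapped, and where the peak had to cover a start its log2 difference was 4.17 in place of 1.81. RPL7A and RPL30 thus ranked behind untreated with either agent, and both comparisons share the untreated libraries.

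TNFα and cobimetinib libraries were compared directly, a contrast that uses no untreated library for its difference. Its SEs and p-values came from the fit over all 6 libraries, so they include the spread between the untreated libraries. The limma test called 0 of 10397 promoters (0.0%) and 0 of 74 members. An unadjusted p below 0.05 was reached by 630 promoters (6.06%), among them 8 of the 74 members. The smallest adjusted p of a member was 0.705. When only these 4 libraries were fitted, 58 promoters were called, none of them a member. Non-overlapping ranks were better with TNFα in 14 members (18.9%) and worse in 18 (24.3%), against 1657 (15.9%) and 2989 (28.7%) of all promoters. On the rank among promoters 19 members were better and 13 worse, against 2221 (21.4%) and 2304 (22.2%). The median promoter differed by 0.21 (log2, TNFα minus cobimetinib) on the whole list and by 0.01 among promoters, and the median member by 0.22 and -0.05. The excess toward a worse rank with TNFα was thus shared with all promoters and turned on the other scale, and on quantile-normalized scores the median member was at -0.02. By role, 7 large-subunit promoters were better and 13 worse of 43, and 6 small-subunit promoters were better and 5 worse of 29.

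RPSA, a small-subunit protein also known as the laminin receptor, had the largest difference between TNFα and cobimetinib among members with non-overlapping ranks. It ranked 4527.5 and 3306 untreated, 15529 and 12671 with cobimetinib and 2182 and 2821 with TNFα, with scores of 198 and 72, 75 and 82, and 262 and 178. Its 3 conditions did not overlap, TNFα being ahead of untreated and untreated ahead of cobimetinib. The geometric mean rank was 5.65 times better with TNFα than with cobimetinib (log2 difference -2.50, SE 0.75, limma adjusted p = 0.705), and 3.63 times worse with cobimetinib than untreated (log2 difference 1.86, SE 0.75, limma adjusted p = 0.569). Its peak covered the canonical start in all 6 libraries. It was 1436 and 890 bp wide untreated, 855 and 907 bp with cobimetinib and 1486 and 1413 bp with TNFα. The width in untreated replicate 2 thus lay within the cobimetinib range. On the rank among promoters the order was the same, with 3100 and 1705 untreated, 7716 and 6970 with cobimetinib and 1215 and 1372 with TNFα.

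RPL13A, a large-subunit protein that hosts 4 snoRNAs, showed the same order of conditions. Its ranks were 14921.5 and 12386 untreated, 29451.5 and 24638.5 with cobimetinib and 8987.5 and 5856.5 with TNFα, and TNFα was ahead of cobimetinib by 3.71 times (log2 -1.89, SE 0.75, limma adjusted p = 0.775). In untreated replicate 2 and cobimetinib replicate 2 its best peak lay 661 and 592 bp from the canonical start. RPL10A, in the L1 stalk of the large subunit, ranked 14178.5 and 14180.5 with cobimetinib and 3273.5 and 5183 with TNFα. RPS13, which hosts 2 snoRNAs, ranked 14953 and 14802.5 with cobimetinib and 4950 and 4062 with TNFα. For both of these, untreated replicate 1 lay on the TNFα side (2564 and 3914.5) and untreated replicate 2 further back (8297 and 13968).

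RPL23, RPL31, RPL41 and RPL6 ranked worse with TNFα than with cobimetinib. RPL23 ranked 4040.5 and 7127.5 with TNFα, 4.91 times behind its 1241.5 and 962 with cobimetinib (log2 2.30, SE 0.85, limma adjusted p = 0.734), and its untreated libraries covered the TNFα range. Where the peak had to cover a start, this RPL23 difference was 0.34. RPL31, a protein at the rim of the peptide tunnel, ranked 918 and 1405.5 with cobimetinib and 8593.5 and 2462 with TNFα, and RPL41 345.5 and 424 against 1763.5 and 1180. RPL6 ranked 1935 and 1317.5 with cobimetinib and 5512 and 4903 with TNFα, but in both cobimetinib libraries, in TNFα replicate 2 and in untreated replicate 2 its best peak lay 8704 to 9606 bp from the canonical start, near PTPN11. With the canonical start alone RPL6 ranked 2565.5 and 1332 with cobimetinib and 5512 and 5856.5 with TNFα, and the groups stayed apart.

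Leaving out untreated replicate 1 changed the calls most. The limma test then called 1962 promoters (18.9%) and 18 members (24.3%) between cobimetinib and untreated cells, and 1075 promoters (10.3%) and 11 members (14.9%) between TNFα and untreated cells. The lone untreated library is then assumed to vary like the other groups. Most of these members, like most of all the promoters called, ranked better than in untreated replicate 2. RPL19 led them, with log2 differences of -5.33 and -3.98. It is the member that ranked 1339.5 in that library and at most 110 in any other. RPL14 and RPL30 with cobimetinib, and RPL7A and RPL30 with TNFα, were the members called worse. Without untreated replicate 2 the calls were 27 promoters with cobimetinib and 0 with TNFα, and no member was among them. Calls of members against untreated cells thus appeared, among these settings, only where untreated replicate 2 stood alone for the untreated condition.

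Motifs were searched in the RefSeq promoters, from 250 bases before the start to 50 after it, for the 62 of 77 members with an entry, 60 of which started at the same base as the canonical transcript. A TOP tract, here a C and at least 4 further C or T beginning within 5 bases of the start, was present in 53 of 62 (85.5%, 95% Wilson interval 74.7 to 92.2%). It was present in 21.1% of the promoters of 27305 genes and in 22.4% of 8323 other genes with a peak in all 6 libraries. The members without one by this rule were RPL6, RPL9, RPL15, RPL17, RPL27, RPS4X, RPS15, RPS26 and RPS29. Members with the tract had a median geometric mean rank of 5959 and those without one of 2659.

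The ETS core (CCGGAAG, either strand), bound by ETS factors such as GABP and by ETS factors downstream of ERK, was present in 21 of 62 members (33.9%, 23.3 to 46.3%), against 10.7% of all promoters and 21.4% of other promoters with a peak. The GC box (GGGCGG), bound by SP1, was present in 56.5% of members, 44.6% of all promoters and 71.3% of other promoters with a peak. The YY1 motif (AANATGGC) was present in 16.1%, 6.82% and 11.2% in the same order, and the E-box (CACGTG), bound by MYC and USF factors, in 4.84%, 7.43% and 10.3%. TATAAA between 40 and 20 bases before the start was present in RPLP0 and RPS28 alone (3.23%, against 2.48% and 1.49%).

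The AP1 word (TGANTCA, the palindrome read on both strands) was found only in RPL24, 236 bases before the start, which is 1.61% of members (0.285 to 8.59%) against 7.76% of all promoters and 4.28% of other promoters with a peak. The NF-κB motif was found in RPL35, RPS19 and RPS27A (4.84%, against 5.72% and 6.45%), and the ZBED1 motif (TGTCGCGA) in 0 of 62 (upper Wilson limit 5.83%), against 0.275% and 0.565%. RPL24, at 6819.5 and 7783 with cobimetinib, stood behind its untreated ranks with both agents. Of the 3 members with an NF-κB match, RPS19 ranked 1229 and 2224 untreated, 3734 and 3026.5 with cobimetinib and 3460.5 and 3775 with TNFα, behind its untreated ranks with both agents. RPL35, at 17208.5 and 9796 with TNFα, lay between its untreated ranks. RPS27A ranked 5337 and 5234.5 untreated, 2060.5 and 1037.5 with cobimetinib and 2620.5 and 3392.5 with TNFα, ahead of its untreated ranks with both agents. A match is a run of letters and not a measured site.

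**Figure D4:**
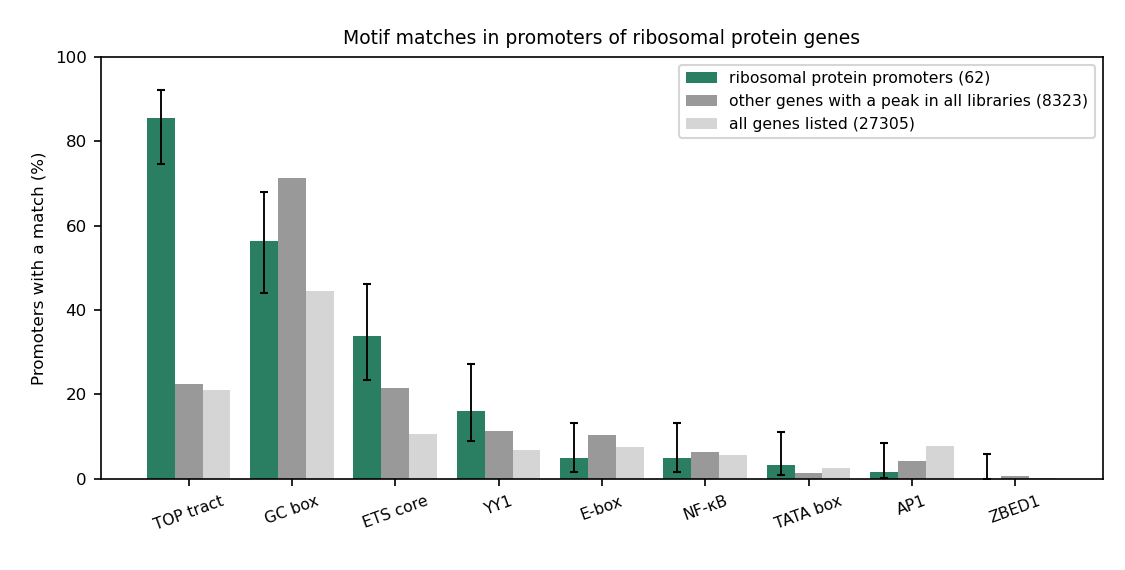
Share of promoters (vertical axis, percent, from 0) with a match to each motif in 62 ribosomal protein promoters (green, with 95% Wilson intervals), in 8323 other genes with a peak in all 6 libraries (dark gray) and in all 27305 genes listed (light gray). The TOP tract, at 85.5%, stands far above both backgrounds. The AP1 word, at 1.61%, is below both, but its interval, 0.285 to 8.59%, holds both.

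Gene structure was read from the annotation for the same genes. Of 77 members, 28 (36.4%) held a snoRNA within their span on the same strand, against 1.79% of all promoters tested. Whether it lay in an intron was not checked. The median geometric mean rank of members with a snoRNA was 3211, against 5988 for members without one. Another gene started within 1 kb of 22 members (28.6%), against 34.1% of all promoters tested, so an acetylated peak there cannot be assigned to either gene alone. The 21 such members with a peak in all 6 libraries had a median geometric mean rank of 4015, against 5125 for the 53 without a neighbor. Members were short genes, with a median span of 5332 bp against 34275 bp.

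Other genes of the translation machinery were set beside the members as lists. Of 78 mitochondrial ribosomal protein genes, 75 had a peak in all 6 libraries, with a median geometric mean rank of 7702, and of 19 translation factors and other TOP genes, 18 did, with a median of 5033. The 15 ribosome biogenesis genes had a median of 5023. The limma test called 0 genes of each list in all 3 comparisons. Non-overlapping ranks with cobimetinib against untreated were 15 better and 9 worse for mitochondrial proteins (20% and 12% of 75), 4 and 2 for TOP genes (22.2% and 11.1% of 18), and 2 and 5 for biogenesis genes (13.3% and 33.3% of 15), beside 22.0% and 13.8% of all promoters. With TNFα against untreated these shares were 12% and 17.3% for mitochondrial proteins, 5.56% and 0% for TOP genes and 26.7% and 13.3% for biogenesis genes, beside 12.9% and 16.3% of all promoters. With TNFα against cobimetinib they were 10.7% and 28%, 33.3% and 11.1%, and 40% and 33.3%, beside 15.9% and 28.7%. The mitochondrial shares lay near those of all promoters in most of these, and 1 gene of the shorter lists makes several percent, so nothing is read from their shares.

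FAU ranked 16073 and 29057.5 untreated, 19047 and 17372 with cobimetinib and 18596.5 and 8445.5 with TNFα. Of 7 paralogs with ribosomal-protein-like names, 3 had a peak in all 6 libraries and RPL39L, RPL10L and RPL3L had none in any. RPL7L1 was the best of them, with ranks from 308.5 to 1061. The lists of 12 MAPK-induced and 12 TNF-induced genes had 9 and 7 genes with a peak in all 6 libraries. The limma test called none of them either. With TNFα against untreated, non-overlapping ranks were better in 57.1% and worse in 0% of the TNF-induced genes, beside 12.9% and 16.3% of all promoters. With cobimetinib against untreated, the MAPK-induced genes had 11.1% better and 33.3% worse, beside 22.0% and 13.8%. MAPK-induced genes had 22.2% better and 22.2% worse with TNFα, and TNF-induced genes 42.9% and 28.6% with cobimetinib. The lists are short and were chosen with earlier results of these data known, so nothing is read from these shares.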

How the data were processed

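H3K27ac CUT&RUN peak lists of 6 HCT116 libraries were used, 2 for each of 3 conditions, and the 6 IgG libraries were not analysed here. The authors trimmed reads with BBDuk, aligned them to hg38 with BWA, kept reads of sufficient mapping quality, called peaks with MACS2 at a relaxed threshold without a background library, in paired-end and single-end mode, and merged both sets with the larger score kept. The submitters' processing notes name BWA 0.7.15 and MACS2 2.1.1. The deposited value is a peak score in whole numbers, it is not a count, and read depth is unknown. Peak names in untreated replicate 2 mark a merge after resequencing.

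From these lists, the best-scoring peak within 1 kb of any transcript start (GENCODE 44) was taken for each protein-coding gene in each library, with Python 3.11.15, pandas 2.3.3 and SciPy 1.17.1. Its rank in the whole list was put on a log2 scale, and limma 3.58.1 (R 4.3.3) compared the conditions in 1 fit over all 6 libraries for the 10397 genes with a peak in each. The p-values were adjusted by the Benjamini-Hochberg method over all of these. The scripts were tested on simulated data. For the limma fit, every simulated library had the spread of the cobimetinib pair. The simulation therefore does not show what the fit could find with these untreated libraries. The members and the lists were chosen with earlier results of these data known. Named were, in each comparison, the 4 members with the largest difference in each direction among those with non-overlapping ranks, the best 6 and worst 6 by mean log2 rank, members without a peak in a library, and neighbors of these within 1 kb. Some of the genes this rule names are not reported here. Wilson intervals cover counting error only. Alternatives changed the ranking scale, ties, window, starts, filter, threshold, measure, shared starts, replicate block and libraries.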

Additional observations from a re-analysis of the deposited data

How the results depend on the processing

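Read depth is unknown, each condition has 2 libraries, and untreated replicate 2 has narrow peaks, which limits what a comparison with untreated cells can show. Replicate numbers were not treated as pairs, since the deviations of same-numbered libraries correlated at -0.036, 0.094 and 0.045. With a replicate block limma called 1 promoter between TNFα and cobimetinib, no member, and 0 promoters in each of the other comparisons. The reported fit called no promoter in any comparison, so it gave no called direction that an alternative could turn. Of the summary values under the alternatives, 207 kept within a tolerance of 1.5 times for a count or 0.238 (log2, the spread between replicates) for a median, which still lets a small median change much in proportion, and 38 did not. The cause was not tested. The differences of single named members kept their direction in all 251 values with other settings on ranks and all 24 on quantile-normalized scores, but not their size. All 144 values without 1 library kept it too, which the choice of members with non-overlapping ranks fixed in advance. A replicate block, a fit of only the conditions compared, and loss of a library not compared leave each difference unchanged. The 144 and the 251 therefore include values that could not move. Without 1 library 30 of 144 moved by more than 1.5 times, by up to 8.39 times. With other settings on ranks 11 of 251 did, by up to 5.13 times. Quantile-normalized scores are on another scale. Without untreated replicate 1, 7 of these differences passed the test.

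For cobimetinib against untreated, the median log2 rank difference of members, -0.27 as reported, was 0.069 with the 20000 best peaks, 0.026 with quantile-normalized scores, 0.079 with ranks among promoters, and between -0.590 and 0.140 without 1 library. Members with better non-overlapping ranks numbered 11 with the 20000 best peaks, 10 with shared starts left out and 21 to 40 without 1 library, and those with worse ranks 18 to 30 without 1 library. Without 1 library limma called 0 to 1962 promoters and 0 to 18 members, the highest without untreated replicate 1.

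For TNFα against untreated, the median was 0.115 with the 20000 best peaks and between -0.723 and 0.269 without 1 library. Members with better ranks numbered 7 with shared starts left out and 17 to 44 without 1 library, and those with worse ranks 14 to 38. Without 1 library limma called 0 to 1075 promoters and 0 to 11 members, the highest again without untreated replicate 1.

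For TNFα against cobimetinib, limma called 2 promoters on quantile-normalized scores, 58 with only these conditions fitted and 0 to 58 without 1 library. The median was -0.022 on quantile-normalized scores, -0.048 on ranks among promoters and between -0.003 and 0.379 without 1 library. Members with better ranks numbered 16 to 26 and those with worse ranks 25 to 37 without 1 library, and 10 ranked worse with shared starts left out. Leaving out 1 library leaves 1 against 2, where non-overlap is easier to reach, so these counts rise by construction. The use of the canonical start alone was chosen after seeing the data and gave 74 members with a peak in all 6 libraries, and the window of 2 kb gave 75, a peak over the start 61 and shared starts left out 51.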
